A study of Mus musculus with 8 samples.

Results

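Cytochrome P450 enzymes of families 1 to 4 were read across the cells of tumour-bearing mouse liver. The members were all genes of the deposited matrices whose symbol is Cyp, a family number from 1 to 4, 1 subfamily letter and a number, with nothing after it. This rule used no measured value and gave 76 of 33696 genes, in 21 subfamilies. It leaves out symbols that end in a further letter, such as Cyp4a12a. Of the 76 members, 62 had at least 1 UMI (a unique molecular identifier, which marks 1 captured mRNA) in tumour-type hepatocytes, 46 had one in other hepatocytes, and 4 had none in any cell class.

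P450 enzymes carry haem and sit mostly in the membrane of the endoplasmic reticulum, where P450 oxidoreductase passes them electrons to insert oxygen into a substrate. Families 1, 2 and 3 oxidise drugs, pollutants, steroids and bile acids, and many enzymes of families 2 and 4 oxidise fatty acids and their signalling products. In mouse liver many of the genes follow the zones of the lobule: Cyp2e1 and Cyp1a2 are known for the hepatocytes around the central vein, Cyp2f2 for those around the portal vein. Several differ between male and female mice, and most respond to nuclear receptors and to the liver factors HNF4, HNF1 and C/EBP.

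The libraries labelled knockout came from mice with genotype Ncr1iCre, Nr4a1fl/fl, and the control libraries from Ncr1WT, Nr4a1fl/fl mice, which are homozygous for the floxed gene but carry no Cre. The Cre is expressed from Ncr1, a gene of natural killer cells and group 1 innate lymphoid cells, so hepatocytes of both groups are meant to carry the same intact floxed allele. Per the design text all were male C57BL/6 mice of 8 to 10 weeks, given 30 µg of plasmid by hydrodynamic tail vein injection. The plasmids were CRISPR-Cas9 vectors with a guide to Trp53, a c-Myc transposon and the SB13 transposase, and livers were taken 4 to 5 weeks later. Both groups had 3 libraries. Knockout 3 pooled 2 mice, control 3 pooled 3 mice, and no label ties the other libraries to animals, so p-values measure the spread between these libraries. The comparison between the groups asks whether losing Nr4a1 (Nur77) from Ncr1-expressing cells goes with a change in the cells around them.

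Some libraries stood apart. Libraries held 34369055, 4232577 and 88186316 gene UMIs in knockouts 1, 2 and 3, against 44326754, 4126740 and 122609032 in controls 1, 2 and 3. The libraries numbered 2 also had high median mitochondrial shares, 75.1% in knockout 2 and 27.9% in control 2, against 6.7 to 10.0% elsewhere. Although the label says male, knockout 1 and control 1 held 20319 and 30081 UMIs of Xist, the RNA of the inactive X chromosome in female cells, and only 26 and 46 UMIs of 4 Y-linked genes (Ddx3y, Eif2s3y, Kdm5d and Uty). The other 4 libraries held 0 to 63 UMIs of Xist and 215 to 12403 of the Y-linked genes. Each group has 1 such library, and results that rest on them are given with and without them. Pairs of libraries shared 0 to 15 cell barcodes. Nr4a1 itself was read at 135, 8.92 and 69.2 CPM (a gene's UMIs scaled by all UMIs of the class in that library) in NK and ILC1 cells of knockouts 1, 2 and 3, against 78.5, 40.8 and 59.1 CPM in controls 1, 2 and 3. These 3′ tags may lie outside the deleted part, which the labels do not give, so they do not check the genotype.

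Hepatocytes were clustered with every gene whose symbol starts with Cyp held out, and kept with at least 2000 UMIs and no UMI of the leukocyte gene Ptprc. Tumour-type cells, named for oncofetal markers such as Afp, Gpc3, H19 and Igf2, numbered 142, 10 and 532 in knockouts 1, 2 and 3 and 411, 43 and 188 in controls 1, 2 and 3, or 1326 in all. Other hepatocytes numbered 97 in knockout 3, and 28 and 113 in controls 1 and 3, with 0 to 2 cells in the remaining libraries. The classes were named with the marker lists summed here, so the sums describe the classes and are no check of their names. The 16 tumour-type markers summed to 5065 to 6209 CPM in tumour-type cells, against 76.7 to 96.7 CPM in other hepatocytes of the 3 libraries with at least 10 such cells. The 20 hepatocyte markers summed to 16076 to 25030 CPM in tumour-type cells, against 101264 to 134933 CPM in other hepatocytes. The 10 tumour-type cells of knockout 2 also carried 820 CPM of 6 cholangiocyte markers, against 10.0 to 50.3 CPM in the other libraries; the part of this in its values was not tested.

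In tumour-type hepatocytes most member UMIs came from few genes. Members together took 486, 589 and 437 CPM in knockouts 1, 2 and 3, and 494, 405 and 432 CPM in controls 1, 2 and 3, so the groups overlapped. In knockouts 1 and 3 and controls 1 and 3 most of these UMIs came from the deepest cells. In cells of 50000 UMIs or more, knockouts 1 and 3 held 499 and 451 CPM, against 482 and 433 CPM in controls 1 and 3. In cells of 10000 to 50000 UMIs they held 283 and 282 CPM, against 569 and 412 CPM in controls 1 and 3, from 24 and 106 against 118 and 34 cells. Below 10000 UMIs they held 263 and 235 CPM, against 642, 302 and 380 CPM in controls 1, 2 and 3, from 13 to 68 cells a library. Bins of fewer than 10 cells were left out, so knockout 2 is in none of them and control 2 only in the lowest. Below 50000 UMIs knockouts 1 and 3 lay below the control libraries shown, which says nothing of knockout 2. This split by depth was not tested, and no such comparison over all genes stands beside it. The Cyp2c subfamily, 15 genes that include arachidonic acid epoxygenases, supplied 46.1, 37.4 and 44.9% of member UMIs in knockouts 1, 2 and 3 and 46.6, 38.5 and 45.0% in controls 1, 2 and 3. The Cyp3a subfamily, whose enzymes oxidise many drugs and steroids, supplied 32.8, 31.5 and 31.6% in knockout libraries and 32.4, 26.7 and 33.1% in control libraries. Cyp2d genes added 11.9, 20.6 and 14.5% in knockout libraries and 10.4, 18.0 and 12.4% in control libraries, and the single gene Cyp4v3 added 3.50 to 4.99% and 4.07 to 6.83%. The other 17 subfamilies were minor in these cells: Cyp2e1 made up at most 0.411% of member UMIs in knockout libraries and 0.609% in control libraries. Their leading members, by UMIs in tumour-type and other hepatocytes, were Cyp2f2 (332 and 437), Cyp4f13 (570 and 27), Cyp2j5 (268 and 224), Cyp2a12 (70 and 205), Cyp2u1 (163 and 26), Cyp1a2 (83 and 71) and Cyp2s1 (146 and 0). Sparser still were Cyp2b10, a target of the constitutive androstane receptor (26 and 1 UMIs), Cyp2r1 (14 and 9), Cyp1b1 (17 and 0), Cyp4b1 (17 and 0), Cyp4x1 (13 and 0), Cyp4a32 (4 and 3) and Cyp2g1 (2 and 0). Cyp2w1 and Cyp2t4 had none in hepatocytes, and Cyp2w1, Cyp4a29, Cyp2b23 and Cyp2d34 had none in any class. The 5 leading members held 67.7 to 72.9% of all member UMIs in each library.

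**Figure D1:**
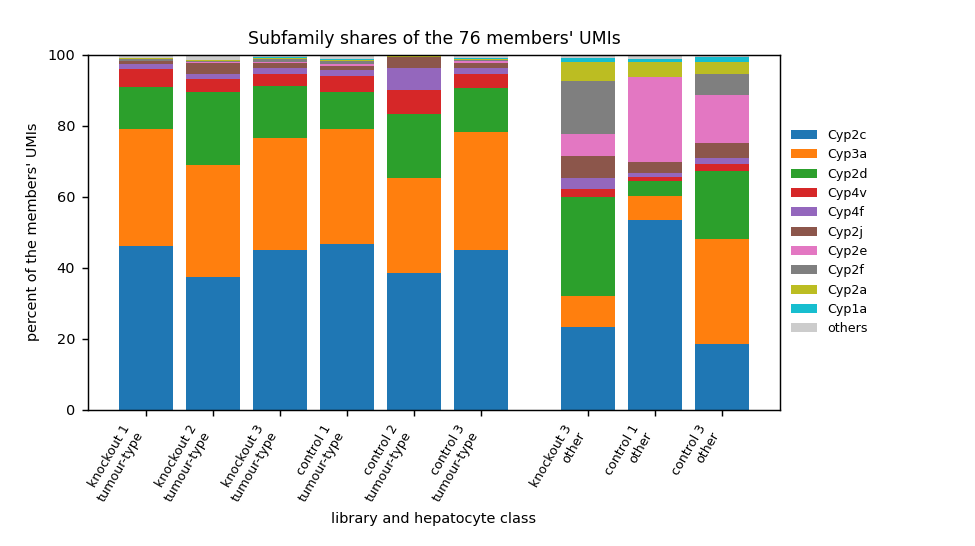
Share of member UMIs (percent, vertical axis) taken by each P450 subfamily, 1 stacked bar per library and hepatocyte class, tumour-type left of other hepatocytes and knockout left of control libraries. Cyp2c takes 37.4 to 46.6% and Cyp3a 26.7 to 33.1% in tumour-type bars, while in other hepatocytes Cyp2c ranges from 18.4 to 53.4%.

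Cyp2c68, a gene of the mouse Cyp2c cluster on chromosome 19, was the leading member of the tumour-type class. It reached 138, 76.2 and 110 CPM in knockouts 1, 2 and 3, against 139, 75.5 and 104 CPM in controls 1, 2 and 3. The libraries numbered 1 were highest and those numbered 2 lowest in both groups, and the groups overlapped. Cyp3a11, the chief drug-oxidising enzyme of mouse family 3 and a known target of the pregnane X receptor, stood at 100, 80.4 and 82.2 CPM in knockout libraries, against 95.04, 78.0 and 80.5 CPM in control libraries. Cyp2c70, which makes muricholic acids from chenodeoxycholic acid in the mouse, stood at 39.1, 92.7 and 52.9 CPM in knockout libraries, against 38.4, 50.3 and 55.9 CPM in control libraries; only knockout 2, with its 10 cells, lay outside the control range on the high side. Cyp2d26 stood at 33.8, 86.5 and 39.7 CPM in knockout libraries and 31.1, 57.9 and 29.5 CPM in control libraries.

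Detection followed depth. With every cell thinned to 2000 UMIs, a UMI of Cyp2c68 was found in 20.4, 17.3 and 16.8% of tumour-type cells of knockouts 1, 2 and 3, and in 23.2, 7.44 and 17.6% in controls 1, 2 and 3. Unthinned, the shares were 80.0 to 83.1% in knockout libraries and 23.3 to 92.7% in control libraries, at medians of 17704.5 to 92999.5 and 5283 to 95549 UMIs per cell. T cells, which should lack the gene, held a Cyp2c68 UMI in at most 0.447% of cells in knockout libraries and 1.68% in control libraries after the same thinning, at medians of 3928.5 to 5487.5 and 3818 to 4602 UMIs per cell before it. The tumour-type subclusters differed in level: the 372 cells of the highest held 582 CPM of members and 152 CPM of Cyp2c68, and the 219 cells of the lowest held 194 CPM of members and 62.5 CPM of Cyp2c68. The lowest also had the smaller cells, with a median of 11342 UMIs against 79676 in the highest, and less Alb, 177 against 686 CPM; the part of cell size in the difference was not tested.

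**Figure D2:**
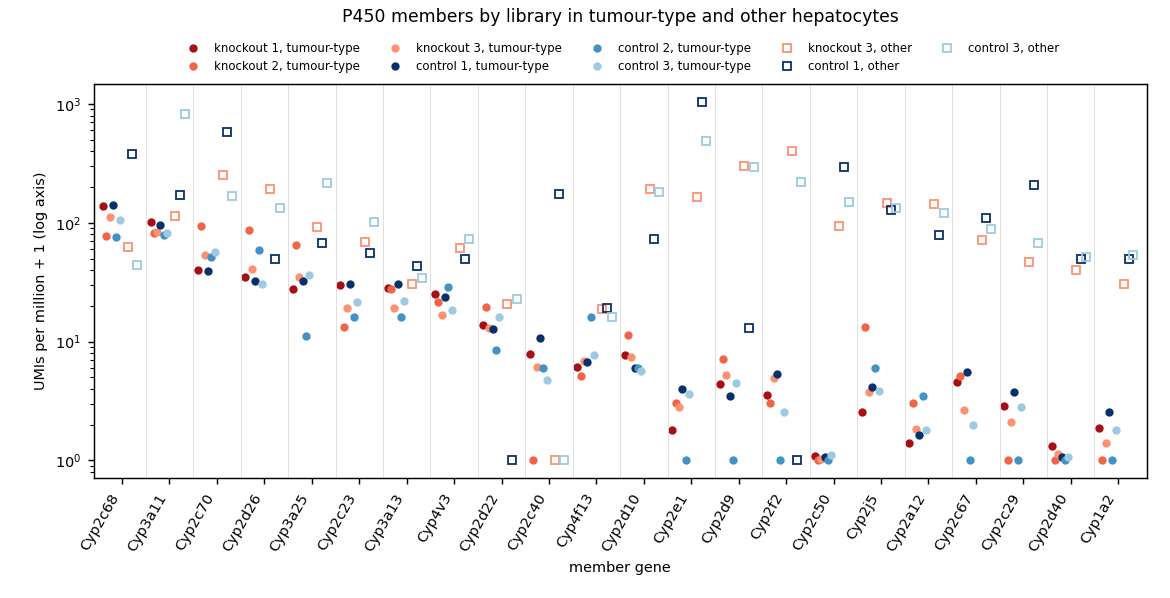
CPM plus 1 (vertical log axis) of 22 members in each library; filled circles are tumour-type and open squares other hepatocytes, knockout libraries in red shades left of control libraries in blue shades. Cyp2c68 and Cyp3a11 lie between 75.5 and 139 CPM in the 6 tumour-type libraries, while Cyp2e1 and Cyp2f2 stay below 5 CPM there and reach 1046 and 403 CPM in other hepatocytes.

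Promoters are shown for the 3 leading tumour-type members (Cyp2c68, Cyp3a11 and Cyp2c70), for Cyp2c50 and Cyp2e1, which had the largest fall and the smallest p against other hepatocytes, and for Cyp2c67, a low member that shares an element with the leading ones. A RefSeq promoter (GRCm38.p6, 300 bases, 250 before the annotated start and 50 after) was on hand for 62 members, as 69 entries. Printed are the 250 bases before the start, 5′ to 3′ on the gene's strand. Capitals mark CAAAGTCCA, an element of the kind that HNF4 binds, and TATAAA, the core of a promoter element that places the start, each also as its reverse complement. The marks show matching letters only: in Cyp3a11 TATAAA lies at the far end of the window and not near the start. The windows are chr19:39741102-39741351 (minus strand) for Cyp2c68, chr5:145879855-145880104 (minus strand) for Cyp3a11, chr19:40187287-40187536 (minus strand) for Cyp2c70, chr19:39649043-39649292 (minus strand) for Cyp2c67, chr19:40089429-40089678 (plus strand) for Cyp2c50 and chr7:140763569-140763818 (plus strand) for Cyp2e1.
Cyp2c68: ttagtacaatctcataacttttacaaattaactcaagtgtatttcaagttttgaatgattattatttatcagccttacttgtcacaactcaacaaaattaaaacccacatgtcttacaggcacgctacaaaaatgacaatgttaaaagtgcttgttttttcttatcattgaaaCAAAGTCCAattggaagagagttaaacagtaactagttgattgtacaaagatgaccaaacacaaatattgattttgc
Cyp3a11: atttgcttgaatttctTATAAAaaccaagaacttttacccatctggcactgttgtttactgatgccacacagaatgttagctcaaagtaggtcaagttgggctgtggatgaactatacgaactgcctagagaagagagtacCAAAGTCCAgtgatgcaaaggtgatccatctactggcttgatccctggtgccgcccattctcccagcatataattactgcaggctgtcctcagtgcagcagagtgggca
Cyp2c70: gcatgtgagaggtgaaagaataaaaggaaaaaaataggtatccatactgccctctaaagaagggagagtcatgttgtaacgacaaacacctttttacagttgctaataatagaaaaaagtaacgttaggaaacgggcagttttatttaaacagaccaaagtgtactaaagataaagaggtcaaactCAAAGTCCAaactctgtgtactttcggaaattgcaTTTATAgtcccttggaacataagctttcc
Cyp2c67: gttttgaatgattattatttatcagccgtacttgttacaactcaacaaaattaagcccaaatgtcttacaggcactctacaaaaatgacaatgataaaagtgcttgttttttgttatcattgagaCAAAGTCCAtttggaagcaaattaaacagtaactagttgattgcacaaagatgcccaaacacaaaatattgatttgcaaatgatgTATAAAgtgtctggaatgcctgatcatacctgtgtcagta
Cyp2c50: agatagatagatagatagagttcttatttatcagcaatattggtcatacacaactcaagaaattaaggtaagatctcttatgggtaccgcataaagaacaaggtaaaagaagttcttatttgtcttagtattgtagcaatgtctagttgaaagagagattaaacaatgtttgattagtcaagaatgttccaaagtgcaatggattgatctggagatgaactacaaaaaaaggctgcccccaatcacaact
Cyp2e1: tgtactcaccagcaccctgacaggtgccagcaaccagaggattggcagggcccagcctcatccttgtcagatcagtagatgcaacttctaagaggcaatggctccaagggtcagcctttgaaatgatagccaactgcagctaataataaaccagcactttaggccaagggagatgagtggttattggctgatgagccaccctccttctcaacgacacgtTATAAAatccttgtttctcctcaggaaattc

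CAAAGTCCA began 77 bases before the start in Cyp2c68, 109 in Cyp3a11, 64 in Cyp2c70 and 125 in Cyp2c67. Within the 300-base windows, searched on both strands, it was found in 8 of 69 member promoters (11.6%), against 156 of all 32851 promoters (0.475%). The 8 were Cyp2c40, Cyp2c65, Cyp2c67, Cyp2c68, Cyp2c69, Cyp2c70, Cyp3a11 and Cyp3a16, all of the Cyp2c and Cyp3a subfamilies, whose genes are duplicates of each other and share sequence. TATAAA was found in 39.1% of member promoters against 13.6% of all, GTTAAT, a core of the HNF1 element, in 13.04% against 7.10%, and AGGTCA, a core of nuclear receptor elements, in 29.0% against 16.3%. GCGTG, the core of the element bound by the aryl hydrocarbon receptor, was found in 20.3% against 32.4%. AGGTCA ends in the letters that begin CAAAGTCCA, so matches of these can overlap, and a match is a description of the window only. Of the 4 genes shown with CAAAGTCCA, Cyp2c68, Cyp3a11 and Cyp2c70 were shown because they led the tumour-type class. Cyp2c67 stood at 0.970 to 4.59 CPM in the libraries with at least 1 UMI of it. Cyp2c40, Cyp2c69, Cyp3a16 and Cyp2c65, which also hold the element, had 619, 85, 25 and 6 UMIs in tumour-type cells, against 11604 of Cyp2c68.

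In tumour-type hepatocytes no member passed the test between knockout and control libraries. UMIs were summed per library and compared with edgeR's quasi-likelihood test (TMM scaling, Benjamini-Hochberg adjustment over all genes tested, threshold 0.05). Of 12672 genes tested 0 passed (0%), with 112 at an unadjusted p under 0.05, and of the 27 members with enough counts for the test 0 passed, with 0 at an unadjusted p under 0.05. DESeq2 also called 0 of the 27. The other 49 members were too low to test. The 27 had 12 higher and 15 lower fold changes, with a median log2 fold change (knockout over control) of -0.05, against -0.00 over all genes. DESeq2 gave 15 higher and 12 lower. Without the libraries numbered 1, which carry Xist, 20 of 25 were higher and 5 lower (median 0.10). Without those numbered 2, 9 of 29 were higher and 20 lower (median -0.11). The balance thus depended on the libraries kept.

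Cyp2c68 averaged 108 ± 31.1 CPM in knockout and 106 ± 31.8 CPM in control libraries (SD, n = 3 each), a log2 fold change of 0.02 with a standard error of 0.23 (edgeR adjusted p = 1.00). Cyp3a11 averaged 87.7 ± 11.1 CPM in knockout and 84.5 ± 9.20 CPM in control libraries, a log2 fold change of 0.05 (SE 0.17). Among the 12 members with the most UMIs, Cyp2c70 had a log2 fold change of 0.23 (SE 0.31), Cyp2d26 of 0.44 (SE 0.34) and Cyp3a25 of 0.26 (SE 0.34), each highest in knockout 2. Cyp2c23, an arachidonic acid epoxygenase known from the kidney, had -0.13 (SE 0.26), Cyp3a13 -0.05 (SE 0.23) and Cyp4v3, the mouse counterpart of a human fatty acid hydroxylase, -0.09 (SE 0.23). Cyp2d22 had 0.03 (SE 0.28), Cyp2c40 -0.28 (SE 0.46) and Cyp4f13 -0.36 (SE 0.38). Cyp2d10 had the smallest p of the 27: it stood at 6.79, 10.3 and 6.47 CPM in knockouts 1, 2 and 3, against 4.98, 5.03 and 4.61 CPM in controls 1, 2 and 3. These ranges did not overlap, but the log2 fold change of 0.55 (SE 0.33) had an unadjusted p of 0.123 and an edgeR adjusted p of 1.00. The extremes were Cyp2c55 at 1.11 (SE 0.78), which stood at 3.15, 30.9 and 5.58 CPM in knockout against 2.08, 7.55 and 4.49 CPM in control libraries, and Cyp1a2, which oxidises caffeine and aromatic amines, at -0.99 (SE 0.62). The standard errors of the 5 leading members were 0.17 to 0.34.

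Most of the P450 members that could be tested were lower, per UMI, in tumour-type than in other hepatocytes, and a few did not pass. In the 3 libraries with at least 10 cells of each class (knockout 3, control 1 and control 3), members took 437, 494 and 432 CPM in tumour-type cells, against 2683, 4358 and 3658 CPM in other hepatocytes of the same libraries. With the library as a block, edgeR called 5960 of 12703 genes (46.9%), 27.9% higher and 19.1% lower. Of 37 members tested, 32 fell and 0 rose. Among them, 10 did not pass the count filter in tumour-type cells alone (Cyp2c37, Cyp2c38, Cyp2c39, Cyp2c50, Cyp2c54, Cyp2d13, Cyp2d40, Cyp2r1, Cyp4f15 and Cyp4f17). These passed the filter only through the other hepatocytes, so their fall is no support. Of the other 27, 22 fell, with a median log2 fold change of -2.89 against 0.45 over all genes. DESeq2 called 29 of the 37, all lower, where it called 4671 of 12703 genes, 2045 of them lower. The other 39 members were not tested, and 24 of the 76 had under 10 UMIs in hepatocytes in all. CPM was lower in tumour-type cells in all 3 libraries for 25 of the 37, and no such count over all genes stands beside it. The counts of 29 and 25 are over all 37, with the 10 included. Only 3 pairs of libraries enter this test, and its estimate of the spread was shared fully across genes, so its p-values lean on genes varying alike.

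**Figure D3:**
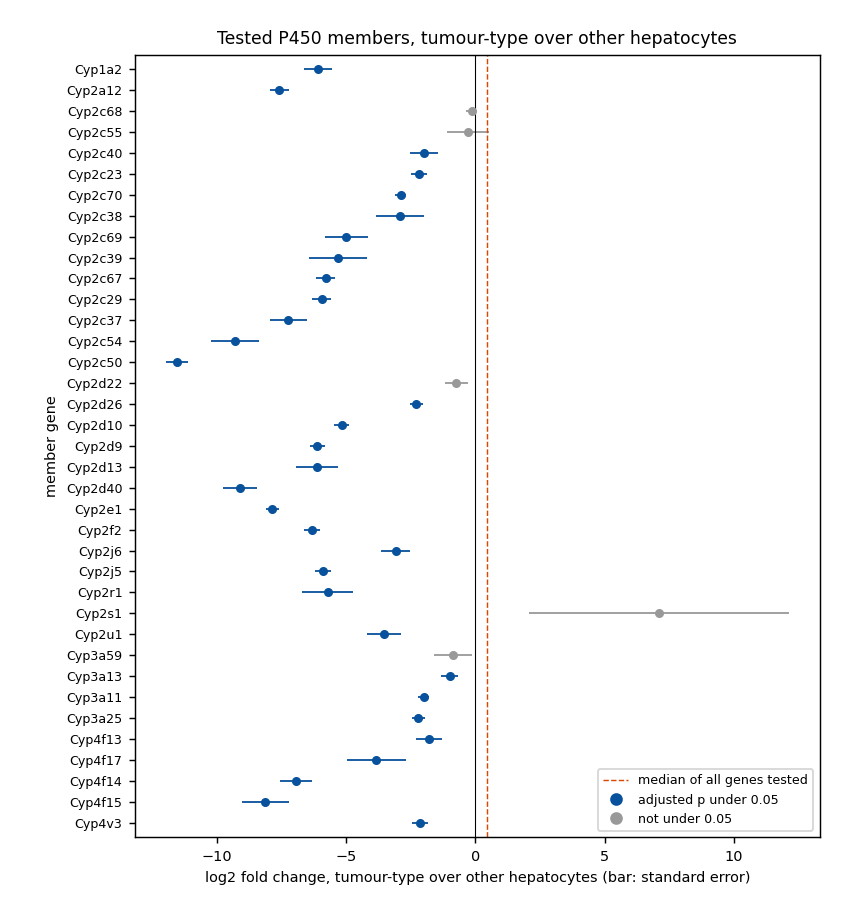
Log2 fold change of tumour-type over other hepatocytes (horizontal axis, bars are 1 standard error) for the 37 members tested, ordered by subfamily, in blue where the adjusted p is under 0.05 and grey otherwise; the dashed line is the median of all genes tested, 0.45. The 32 blue points all lie below 0, and 10 of them passed the count filter only through the other hepatocytes. Cyp2s1, the grey point at 7.09, rests on a class with no UMI.

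The arachidonic acid epoxygenase Cyp2c50 had the largest fitted fall among members with at least 50 UMIs. It is among the 10 members that passed the filter only through the other hepatocytes, so its values are a description only. Cyp2c54 and Cyp2c37, named below, are also among the 10. Cyp2c50 stood at 0.0261, 0.0716 and 0.121 CPM in tumour-type cells of knockout 3, control 1 and control 3, against 93.0, 296 and 150 CPM in their other hepatocytes, with 5 against 235 UMIs (log2 fold change -11.54, SE 0.41). Its relatives Cyp2c54 (log2 fold change -9.30, SE 0.94, from 2 against 35 UMIs), Cyp2c37 (log2 fold change -7.24, SE 0.72) and Cyp2c29 (-5.95, SE 0.36) fell too. The classes did not overlap in any of the 3 libraries for Cyp2c50.

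Cyp2e1 and Cyp1a2, known from the central zone, and Cyp2f2, known from the portal zone, were called lower. Cyp2e1, which oxidises ethanol and other small molecules around the central vein, stood at 1.80, 3.01 and 2.61 CPM in tumour-type cells of knockout 3, control 1 and control 3, against 164.9, 1046 and 487 CPM in other hepatocytes. Its log2 fold change was -7.86 (SE 0.25, edgeR adjusted p = 3.77e-216). Cyp1a2 stood at 0.391, 1.58 and 0.788 CPM in tumour-type cells against 29.4, 48.4 and 52.2 CPM in other hepatocytes (-6.09, SE 0.53). Cyp2f2, the portal member known for oxidising naphthalene, stood at 3.96, 4.33 and 1.58 CPM in tumour-type cells against 403, 0 and 220 CPM in other hepatocytes (-6.32, SE 0.30). Cyp2f2 was lower in tumour-type cells of knockout 3 and control 3. Control 1, which carries Xist, had no Cyp2f2 UMI in its 28 other hepatocytes, where the floor of 3 counts was 18.1 CPM, so no difference was detectable there.

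Other called members with large drops were Cyp2a12, which hydroxylates steroids and bile acids (log2 fold change -7.59, SE 0.37), and Cyp2d9, a male-biased testosterone hydroxylase (-6.11, SE 0.29). Cyp2j5, an arachidonic acid epoxygenase, had -5.90 (SE 0.30), Cyp2c67 -5.80 (SE 0.35), Cyp2d10 -5.17 (SE 0.29) and Cyp4f14, which hydroxylates leukotriene B4 and vitamin E, -6.94 (SE 0.63). Cyp2d40 (-9.11, SE 0.66), Cyp4f15 (-8.12, SE 0.91) and Cyp2d13 (-6.12, SE 0.81) rested on 4 to 20 tumour-type UMIs. Cyp2u1, a hydroxylase of long-chain fatty acids, had -3.54 (SE 0.65), and Cyp2r1, a vitamin D 25-hydroxylase, had -5.72 (SE 1.00) from 12 against 9 UMIs. Of these, Cyp2d40, Cyp4f15, Cyp2d13 and Cyp2r1 passed the filter only through the other hepatocytes, so their fall is no support.

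The members that lead the tumour-type class fell less, and some did not pass. Cyp3a11 stood at 82.2, 95.04 and 80.5 CPM in tumour-type cells of knockout 3, control 1 and control 3, against 113, 169 and 827 CPM in other hepatocytes (log2 fold change -2.01, SE 0.21, edgeR adjusted p = 1.59e-19). Cyp2c70 had -2.89 (SE 0.21), Cyp2d26 -2.29 (SE 0.25), Cyp3a25 -2.21 (SE 0.26), Cyp2c23 -2.18 (SE 0.29) and Cyp4v3 -2.15 (SE 0.31). Against the lower-Alb other hepatocytes described further on, 4 of these members no longer passed: there Cyp3a11 had 0.13, Cyp2d26 -0.41, Cyp2c23 -0.37 and Cyp4v3 -0.70 (edgeR adjusted p = 0.740, 0.362, 0.572 and 0.269). Cyp3a13 was just inside the threshold at -1.002 (SE 0.34, edgeR adjusted p = 0.00951); its call ended without knockout 3 (adjusted p = 0.220), without control 3 (0.163) and against the lower-Alb cells (0.45, 0.555). Cyp4f13 (-1.80, SE 0.51) lost its call likewise (0.130, 0.0570 and 0.912). Cyp2d22 was just outside it at -0.74 (SE 0.45, edgeR adjusted p = 0.161). Cyp3a59 (-0.85, SE 0.74) and Cyp2c55 (-0.27, SE 0.81) did not pass. Cyp2s1 had 120 tumour-type UMIs, 1.45 CPM over these 3 libraries, and none in other hepatocytes, where the floor of 3 counts was 4.90, 18.1 and 3.48 CPM in knockout 3, control 1 and control 3, and it was not called.

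Cyp2c68 turned on 1 library. It stood at 110, 139 and 104 CPM in tumour-type cells of knockout 3, control 1 and control 3, against 62.0, 381 and 42.9 CPM in other hepatocytes. It was thus higher in tumour-type cells of knockout 3 and control 3 and lower in those of control 1. The log2 fold change was -0.15 (SE 0.23, edgeR adjusted p = 0.612) with all 3 libraries and 0.63 (SE 0.22, edgeR adjusted p = 0.0128) without control 1. Cyp2c40, at 5.14, 9.78 and 3.76 CPM in tumour-type cells against 0, 175 and 0 CPM in other hepatocytes, was called lower with all libraries (-1.99, SE 0.54, edgeR adjusted p = 0.000864) but its fitted value without control 1 was 8.90 (SE 3.69, edgeR adjusted p = 0.0351). Cyp2c69 and Cyp2c38 likewise had other-hepatocyte UMIs only in control 1, so their calls rest on it. Without control 1, 31 of 33 members were called, 29 lower and 2 higher (Cyp2c68 and Cyp2c40), where 21.1 and 27% of all genes were. The rise of Cyp2c40 rests on 0 UMIs in other hepatocytes. The floor of 3 counts there was 4.90 CPM in knockout 3 and 3.48 CPM in control 3, close to its tumour-type 5.14 and 3.76 CPM. That rise is therefore no support. The 29 include members that passed the main filter only through the other hepatocytes.

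Counted per cell, the picture differs, and a tumour-type cell of most libraries held far more UMIs: 67922 to 87737 UMIs on average in knockouts 1 and 3 and controls 1 and 3, against 5908 to 7628 UMIs in other hepatocytes of knockout 3 and controls 1 and 3. Tumour-type cells of knockout 2 and control 2, which have 0 and 1 other hepatocytes, averaged 48530 and 9243 UMIs. Member UMIs per cell were 31.5, 33.6 and 37.9 in tumour-type cells of knockout 3, control 1 and control 3, against 16.9, 25.8 and 27.9 in other hepatocytes. Cyp2c68 gave 8.69 UMIs per tumour-type cell against 0.580 per other hepatocyte, Cyp3a11 gave 6.31 against 3.40, and Cyp2e1 gave 0.173 against 2.92. Among the 37 tested members, 14 gave more UMIs per tumour-type cell in all 3 libraries and 13 gave fewer in all 3. No count over all genes stands beside these, so they are not read as particular to the members. Larger cells and deeper capture of a cell cannot be told apart here.

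The other hepatocytes were themselves uneven. They fell into 2 subclusters and 5 further cells. A subcluster of 65 cells held 4975, 4487 and 9484 CPM of members in knockout 3, control 1 and control 3, with 17174 to 42245 CPM of Alb. A subcluster of 171 cells held 744 CPM in knockout 3 and 878 CPM in control 3, with 2906 and 4172 CPM of Alb. Barcodes with at most 100 UMIs, which hold free RNA and are present in the matrices of the libraries numbered 3, held 686 and 338 CPM of members in knockout 3 and control 3. In knockout 3 the other hepatocytes held 62.0 CPM of Cyp2c68 and 113 CPM of Cyp3a11. Its free RNA held 61.5 and 111 CPM of them. Tumour-type cells held 437 CPM of members in knockout 3, below its free RNA, and 432 CPM in control 3, above its free RNA. The part of free RNA in the levels of either class was not tested. Against the higher-Alb subcluster alone, 31 of 36 members fell, where 10.3% of all genes did. Against the lower-Alb subcluster alone, 16 of 28 fell, where 17.3% of all genes did, and Cyp2c68 rose (log2 fold change 1.91). Cyp3a13, Cyp2d22, Cyp3a59 and Cyp2c40 also turned to positive values there without passing. Cyp2c40 had 0 UMIs in other hepatocytes of knockout 3 and control 3, the libraries of that fit. Both splits were added after seeing the data, and both counts include members that passed the main filter only through the other hepatocytes.

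Differences among the other hepatocytes went with the library. Cyp2c69 had 0 UMIs in knockout 3, against 314 CPM in control 1 and 0 in control 3, and Cyp2c40 had 0 in knockout 3, against 175 CPM in control 1 and 0 in control 3. Cyp2a4, a steroid 15α-hydroxylase, had 0 UMIs in knockout 3, against 9 in control 1 and 0 in control 3. These 3 genes are known to be higher in female than in male mouse liver. Cyp2d9, known to be higher in males, had 299 CPM in knockout 3, against 12.1 CPM in control 1 and 292 CPM in control 3. Genes outside the members split the same way. The male-biased Cyp4a12a had 33 UMIs in knockout 3, against 0 and 36 in controls 1 and 3, Hsd3b5 had 60 against 0 and 103, and the female-biased Sult3a1 had 0 against 15 and 0. Control 1 is the Xist library, and pericentral markers in the higher-Alb subcluster summed to 2084 CPM in knockout 3, against 5584 CPM in control 1 and 1911 CPM in control 3. With 1 such library the sex-linked RNA, the zone and the library cannot be told apart.

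**Figure D4:**
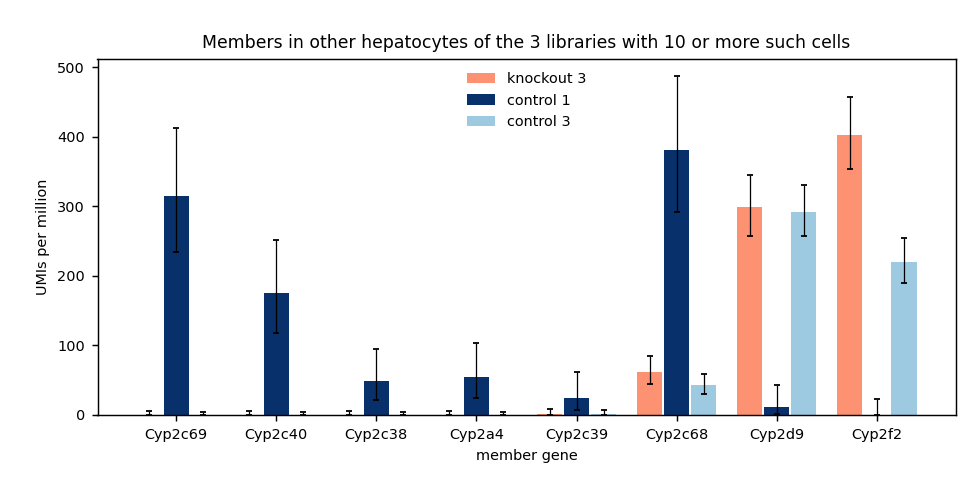
CPM (vertical axis, bars) of 8 members in other hepatocytes of knockout 3, control 1 and control 3, with 95% Poisson intervals that cover counting error only. Control 1 stands above both other libraries for Cyp2c69, Cyp2c40, Cyp2c38, Cyp2a4, Cyp2c39 and Cyp2c68 and below both for Cyp2d9 and Cyp2f2.

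Between the groups, no member passed in other hepatocytes, where the fit holds only knockout 3 against controls 1 and 3, and the lone knockout library is assumed to vary like the controls. With 1 residual degree of freedom, and controls that differ in Xist and in higher-Alb cells, the fit describes these 3 libraries and cannot support a difference between the groups or its absence. edgeR called 0 of 5531 genes (0%; 59 at an unadjusted p under 0.05) and 0 of 30 members (5 at an unadjusted p under 0.05), and DESeq2 called 0 (3 at an unadjusted p under 0.05). The 5 were Cyp2e1, Cyp2c37, Cyp2c69, Cyp3a11 and Cyp2c40. Cyp2e1 stood at 164.9 CPM in knockout 3, against 1046 and 487 CPM in controls 1 and 3 (log2 fold change -2.02, SE 0.56, unadjusted p = 0.00368, edgeR adjusted p = 0.999). Cyp3a11 stood at 113 CPM in knockout 3, against 169 and 827 CPM in controls 1 and 3 (-2.04, SE 0.80). For Cyp2c69 and Cyp2c40 all other-hepatocyte UMIs lay in control 1, so both groups overlapped at 0. The share of higher-Alb cells also differed: 22 of 97 other hepatocytes in knockout 3, against 26 of 28 in control 1 and 15 of 113 in control 3; its part in these values was not tested.

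The 12 members with the most UMIs in this comparison also included Cyp2f2 at 403 CPM in knockout 3 against 0 and 220 CPM in controls 1 and 3 (log2 fold change 1.82, SE 0.99), and Cyp2d9 at 299 CPM against 12.1 and 292 CPM (0.97, SE 0.90). Cyp2c70 stood at 253 CPM against 580 and 165.9 CPM (-0.33, SE 0.63), Cyp2d10 at 191 CPM against 72.5 and 180 CPM (0.67, SE 0.57) and Cyp3a25 at 91.4 CPM against 66.5 and 213 CPM (-0.56, SE 0.66). Cyp2d26 stood at 192.6 CPM in knockout 3, above both controls at 48.4 and 133 CPM (1.12, SE 0.58), and Cyp2c50 at 93.0 CPM, below both at 296 and 150 CPM (-1.04, SE 0.56). Cyp2j5 (0.34, SE 0.50), Cyp2a12 (0.63, SE 0.52) and Cyp2c68 (-1.46, SE 0.94) did not pass either.

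Genes that serve the P450 enzymes moved unequally between the hepatocyte classes. Among electron donors and haem supply, 17 genes tested, 1 rose and 10 fell in tumour-type cells (median log2 fold change -0.87, against 0.45 over all genes). Of all genes tested 27.9% rose and 19.1% fell. Por, the P450 oxidoreductase, was the one that rose: 70.5, 77.8 and 83.5 CPM in tumour-type cells of knockout 3, control 1 and control 3, against 14.7, 6.04 and 22.0 CPM in other hepatocytes (1.85, SE 0.34, edgeR adjusted p = 3.53e-07). Its values did not overlap between the classes. Cyb5a, cytochrome b5, fell to 522, 457 and 492 CPM in tumour-type cells, against 3480, 5349 and 3169 CPM in other hepatocytes (-3.33, SE 0.15). Blvrb, a biliverdin reductase, had -3.64 (SE 0.20), and Alas1, the rate-limiting enzyme of haem synthesis, had -2.45 (SE 0.26).

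Among 21 receptors and liver factors tested, 1 rose and 11 fell (median -0.72), where 27.9% of all genes rose and 19.1% fell. Nr0b2, the bile acid responsive corepressor SHP, fell to 11.97, 9.03 and 8.43 CPM in tumour-type cells of knockout 3, control 1 and control 3, against 62.0, 60.4 and 44.1 CPM in other hepatocytes (-2.82, SE 0.34). Nr1i3, the constitutive androstane receptor that drives Cyp2b and Cyp2c genes, fell by 2.09 on the log2 scale (SE 0.37). Nr1i2, the pregnane X receptor, did not pass (-0.15, SE 0.34), and Hnf4a had -0.72 (SE 0.23, edgeR adjusted p = 0.00590). Cebpb had -1.62 (SE 0.23) over all 3 libraries but stood at 15.1 CPM in tumour-type cells of control 1 against 6.04 CPM in its other hepatocytes. Arnt, the partner of the aryl hydrocarbon receptor, was the gene that rose (1.01, SE 0.42, edgeR adjusted p = 0.0392), while Ahr fell (-1.83, SE 0.63).

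Of 40 genes of drug conjugation and transport, 1 rose and 33 fell (median -3.02), where 27.9% of all genes rose and 19.1% fell. In tumour-type cells alone 38 genes of this list passed the count filter, so the 33 may include genes that passed only through the other hepatocytes. The sulfotransferase Sult2a8 stood at 2.74, 2.26 and 3.58 CPM in tumour-type cells, against 764, 326 and 802 CPM in other hepatocytes (-8.09, SE 0.24), and the aldehyde oxidase Aox3 had -8.73 (SE 0.26). Abcb11, the bile salt export pump, rose (1.28, SE 0.23). Of 9 genes of other P450 families tested, 3 rose and 5 fell, and 8 of this list passed the count filter in tumour-type cells alone. The rises are near the share over all genes and are not read as particular to the list. Cyp7b1 (-4.36, SE 0.35) and Cyp27a1 (-3.58, SE 0.31), enzymes of the alternative pathway of bile acid synthesis, fell, and Cyp20a1 (3.24, SE 0.62), whose substrate is not known, rose. Between knockout and control, 0 genes of these 4 lists passed in either class by edgeR. In tumour-type cells the smallest unadjusted p values of each list were those of Cebpa (-0.40, SE 0.22) and Foxa3 (0.19, SE 0.22), of the haem enzymes Cpox (0.43, SE 0.34) and Alas1 (0.25, SE 0.22), of the oxidase Fmo5 (0.33, SE 0.20) and the epoxide hydrolase Ephx1 (0.78, SE 0.47), and of Cyp8b1 (-0.56, SE 0.42) and Cyp17a1 (-0.55, SE 0.52). In other hepatocytes values among the lowest p of each list were those of Prox1 (-1.45, SE 0.64) and Foxa3 (1.03, SE 0.57), the haem enzyme Fech (-0.43, SE 0.57), the glutathione transferase Gsta1 (-2.09, SE 0.78), and Cyp7a1 (-6.91, SE 2.47) and Cyp7b1 (2.00, SE 0.72). Cyp7a1, the rate-limiting enzyme of bile acid synthesis, stood at 0 CPM in knockout 3, against 66.5 and 9.28 CPM in controls 1 and 3.

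Outside hepatocytes, a few members were read well above free hepatocyte RNA. If free RNA keeps its genes in 1 ratio in every cell type, the UMIs expected of a member follow from the hepatocyte markers in the same class and library. The reference ratio came from barcodes with at most 100 UMIs in the libraries numbered 3. In the libraries numbered 1 and 2 it came from the summed hepatocytes of the library, mostly tumour-type, in place of free RNA. Tumour-type and other hepatocytes differ in these ratios, so the expected counts depend on this choice. In at least 2 libraries, 87 pairs of a member and a class lay above the expected level, with 21 members among them. The pairs were drawn from 76 members and 17 classes. The same rule was not run over all genes, so these counts are not read as particular to the members. Fits of each of 17 classes against the other non-hepatocyte classes tested 19 members in each class and called 78 of the 323, where 33.7% of all gene tests were called, and 58 of them higher, where 22% were. Counts of members called higher were 4 in type 1 dendritic cells, 2 in T cells, 1 in NK and ILC1 cells, 4 in fibroblasts and stellate cells and 0 in erythroid cells, where 24.3, 24.4, 23.2, 31 and 17.9% of all genes were. In the unnamed clusters 1, 3, 9, 13, 14 and 16 they were 0, 4, 2, 3, 0 and 0, where 30.7, 24.8, 11, 13.5, 15.4 and 15.4% of all genes were.

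Endothelial cells carried the clearest case, Cyp4b1, a fatty acid hydroxylase known from lung. It stood at 229, 37.0 and 292 CPM in endothelial cells of knockouts 1, 2 and 3, against 201, 203 and 311 CPM in controls 1, 2 and 3, from 1459 UMIs in all where 12.1 were expected from free RNA. Knockout 2 was low on 2 UMIs. Against other classes its log2 fold change was 7.31 (SE 0.21, edgeR adjusted p = 2.49e-43). In endothelial cells 6 of the 19 members were called higher, where 29.7% of all genes were. Cyp2d22 had 4.28 (SE 0.28), Cyp2j6 had 4.54 (SE 0.38), and Cyp1b1, which oxidises oestrogens and polycyclic hydrocarbons outside the liver cell, had 6.37 (SE 0.63). Cyp1b1 reached 37.4, 0 and 2.81 CPM in knockouts 1, 2 and 3 and 35.8, 0 and 8.66 CPM in controls 1, 2 and 3, so it was highest in the libraries numbered 1 of both groups.

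Myeloid cells and B cells carried Cyp4f18, the mouse enzyme that inactivates the neutrophil attractant leukotriene B4. In neutrophils it stood at 224, 897 and 226 CPM in knockouts 1, 2 and 3, against 182, 196 and 339 CPM in controls 1, 2 and 3 (log2 fold change against other classes 5.67, SE 0.21); the value of knockout 2 comes from 31 UMIs in 17 cells. Basophils and mast cells held 413 and 521 CPM in knockouts 1 and 3, against 534, 610 and 463 CPM in controls 1, 2 and 3 (6.40, SE 0.20). Monocytes held 100, 71.3 and 97.7 CPM in knockout libraries, against 109, 101 and 100 CPM in control libraries (3.82, SE 0.20). B cells held 85.8 and 70.0 CPM in knockouts 1 and 3, against 61.1, 37.2 and 80.4 CPM in controls 1, 2 and 3 (3.54, SE 0.20). Of the 19 members 5 were called higher in neutrophils, 1 in basophils and mast cells, 6 in monocytes and 7 in B cells, where 20.2, 13.8, 26.4 and 23.2% of all genes were.

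Smaller signals were spread more widely. Cyp2r1, the vitamin D 25-hydroxylase, had 96 UMIs in B cells, where 1.88 were expected (log2 fold change against other classes 3.09, SE 0.40). Cyp4f16 had 190 UMIs in monocytes (2.79, SE 0.22) and led the members of type 1 dendritic cells with 122 UMIs (1.62, SE 0.25). Cyp4f16 was read at 42.5, 0 and 41.6 CPM in monocytes of knockouts 1, 2 and 3, against 30.6, 134 and 39.7 CPM in controls 1, 2 and 3. Cyp2s1, a member known from epithelia, led fibroblasts and stellate cells with 56 UMIs, at 13.8 CPM in knockout 3 and 70.8, 24.5 and 5.91 CPM in controls 1, 2 and 3 (5.20, SE 0.55). Cyp4f13 and Cyp4v3 lay above free RNA in T cells (177 and 129 UMIs), in NK and ILC1 cells (76 and 71 UMIs) and in other classes, at 4.00 to 28.9 CPM for Cyp4f13 and 5.11 to 34.2 CPM for Cyp4v3.

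The cluster named cholangiocyte held hepatocyte-type members. Cyp2c68 stood at 184 CPM in its 28 cells of knockout 3, against 209 and 130 CPM in 71 cells of control 1 and 28 of control 3 (log2 fold change against other classes 5.42, SE 0.28), above the levels of tumour-type hepatocytes. Cyp3a25 had 142 UMIs (34.3 expected) and Cyp3a13 had 112 (21.7 expected) in this cluster. In this cluster 13 of 19 members were called higher, where 28.7% of all genes were. It also carried 9990 CPM of hepatocyte markers and 2624 CPM of tumour-type markers, and the part of these in the result was not tested.

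**Figure D5:**
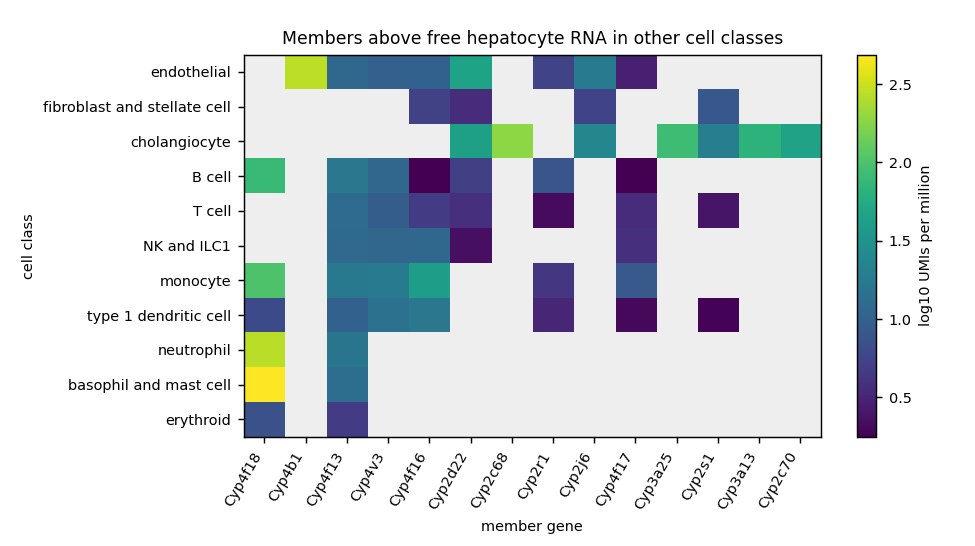
Heat map of 14 members (horizontal) in 11 non-hepatocyte classes (vertical): colour is log10 of CPM over all libraries, and grey marks pairs not above free hepatocyte RNA in at least 2 libraries. Cyp4f18 in basophils and mast cells (489 CPM), Cyp4b1 in endothelial cells (282 CPM) and Cyp4f18 in neutrophils (274 CPM) are the brightest.

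No member passed between knockout and control libraries in the classes where one could be tested. The 25 member tests lay in 9 of 13 classes fitted; NK and ILC1 cells, erythroid cells and clusters 1 and 16 had no member with enough counts, and cholangiocytes, fibroblasts and stellate cells and clusters 9 and 14 were not fitted. Over the 13 classes edgeR called 13 of 87824 gene tests (0.0148%) and 0 of 25 member tests, with 0 member tests at an unadjusted p under 0.05. Cyp4f18 in neutrophils, for instance, had a log2 fold change of 0.73 (SE 0.60, edgeR adjusted p = 0.866), and Cyp4v3 in monocytes 0.52 (SE 0.36, edgeR adjusted p = 1.00). Endothelial Cyp4b1 was among the 25, and its ranges overlapped between the groups.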

How the data were processed

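Single-cell 3′ RNA libraries (10x, v3.1 chemistry) were analysed. The authors deposited raw UMI counts, 1 matrix of genes by barcodes per library. Per the file headers, Cell Ranger 7.0.1 wrote libraries 1 and 2, and 9.0.1 wrote libraries 3; the submitters' processing notes name Cell Ranger 9.0.1 and GRCm39. Hashtag counts of the pooled libraries entered no fit.

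A barcode entered with 500 or more UMIs, 300 or more detected genes and a mitochondrial share of no more than 20%. In the libraries numbered 3, barcodes not distinguishable from free RNA (121 in knockout 3, 152 in control 3, FDR 0.001) were removed. The cells with the highest Scrublet scores were removed as doublets, at a rate of 0.8% for every 1000 cells of a library. This left 20085 cells. Cells were clustered with scanpy 1.11.5 (2000 variable genes, 30 components, 15 neighbours, Leiden resolution 1; for hepatocytes 20 components and resolution 0.5) without any gene whose symbol starts with Cyp. A cluster was named only with at least 3 of its listed markers; 6 stayed unnamed. A hepatocyte subcluster was called tumour-type with at least 3 of the 16 tumour-type markers at 50 CPM or more in at least 10% of its cells; a subcluster of 121 cells with immune markers was left unnamed. Of 1703 tumour-type cells 184 had under 2000 UMIs and 193 a Ptprc UMI; of 639 other hepatocytes the numbers were 369 and 29.

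Counts were summed per library and class (at least 10 cells) and tested with edgeR 4.0.16 in R 4.3.3 (TMM, filterByExpr), adjusted over all genes tested, threshold 0.05; DESeq2 1.42.0 was an alternative. The library is the replicate. Members, gene lists and tests were chosen with earlier results of these data known. Named members are, for each test, those that passed (up to 12 a direction by p) or, where fewer passed, the 12 with the most UMIs, together with the leading member of each subfamily, up to 3 above free RNA in each named class, those nearest a threshold, and the 2 genes of each pathway list with the smallest p; other genes were named after their values were seen, and some genes of the pathway lists are not reported here. Libraries that share a number deviated together (correlations 0.288, 0.170 and 0.147 over genes), all above 0.1. The main fits between knockout and control held the group only and were not paired. Pairing by number entered only the alternative with the replicate block. Where the pairing comes from is not given in the sources used here.

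Each library's floor is 3 counts of its class total, and all intervals are exact Poisson at 95%, covering counting error only. Of 75 members with a 3′ transcript sequence in the GRCm38 annotation, 54 shared no 90-base word of the last 400 bases with another gene; the highest shares were 36.8% (Cyp4a32 with Cyp4a31) and 34.8% (Cyp2c40 with Cyp2c69), and Cyp2c68 shared 25.7% with Cyp2c40, so reads of these could be split or dropped. Alternatives covered the scaling, the filters, DESeq2, the minimum UMIs, the replicate block and each library left out.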

Additional observations from a re-analysis of the deposited data

How the results depend on the processing

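In tumour-type hepatocytes 0 members were called between knockout and control under all 18 alternatives, with 0 to 8 genes called; with the replicate block 0 of 28 members and 3 of 13294 genes were called, and the block changed no other member call. In other hepatocytes, where 0 members were called by the main settings, 2 were called with DESeq2 size factors (9 of 5531 genes), 2 with no filter (11 of 13348), 1 with a minimum of 5000 UMIs (5 of 4542), 4 with up to 40% mitochondrial UMIs (15 of 5756) and 4 with the tumour type taken cell by cell (19 of 5135); these were Cyp2c69, Cyp2c40 and Cyp2e1, lower, and Cyp2f2 and Cyp2d9, higher, and the cause was not tested. Leaving out libraries there, and the replicate block, could not be fitted with 1 knockout and 2 control libraries. In tumour-type against other hepatocytes 25 to 37 members were called under 13 alternatives (25 to 31 with a library left out), and 17 against the lower-Alb subcluster alone, where fewer members could be tested. The 37 came with no filter on low counts, where 62 members were tested. These counts include members that passed the main filter only through the other hepatocytes, so the range is a description only. Genes called under the 13 ran from 3086 of 12150, without knockout 3, to 6424 of 11911, without the library block. Against the lower-Alb subcluster 4998 of 11990 genes were called. Directions reversed for Cyp3a11 (0.13), Cyp3a13 (0.45), Cyp2c68 (1.91) and Cyp2c40 (8.88) against the lower-Alb subcluster, where Cyp2d22 (0.70) and Cyp3a59 (8.96), not called, also changed sign, for Cyp2c55, not called, without control 3 (0.32), for Cyp2c68 (0.63) and Cyp2c40 (8.90) without control 1 (with a library left out they ran from -0.70 to 0.63 and from -2.74 to 8.90), and for Cyp2c40 with DESeq2 (2.11), as log2 fold changes. Cyp2c40 had 0 UMIs in other hepatocytes of knockout 3 and control 3, so its 8.88 and 8.90 rest on counts of 0. The 8.96 of Cyp3a59 had a standard error of 4.90. Of 252 values for 18 named members 240 were counted as unchanged and 5 lost their call. Values not called in either fit counted as unchanged whatever their sign. The 18 were chosen largely by their small p in this same comparison. Some of them passed the count filter only through the other hepatocytes. These counts are therefore a description and no support. Other classes gave 0 member calls between knockout and control with any library left out (0 to 0). Calls of a class against other classes ran from 41, without control 3, to 76 with a library left out. Counting error limits most members outside the leading ones: 24 of 76 had under 10 hepatocyte UMIs.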
